A study of Mus musculus with 48 samples.

Results

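The receptors and target genes of the interleukin 6 (IL6) family were followed in O4+ oligodendrocytes and CD11B+ microglia of mouse pups that had received IL1B or PBS. They were 8 of the 24105 gene symbols on the array, measured by 10 probes. Il6ra, Il6st and Osmr encode receptor chains, Stat3 encodes the transcription factor that these receptors activate, and Socs3, Lrg1, Saa3 and Upp1 were taken as its targets. The genes were chosen by results of these same arrays, in which several of them differed between IL1B and PBS pups at postnatal day (P) 5. Their IL1B differences at P5 are therefore given as a description without a test. Tests were kept to P10, to age in PBS pups and to cell type in PBS pups.

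Male Swiss pups received intraperitoneal PBS or IL1B, the latter at 10 ng per g body weight, from P1 to P4 and once more at P5. Cells were collected 2 h after the last injection at P5, or 5 days later at P10 with no further injection. This gave 8 groups of 6 samples, namely O4+ and CD11B+ cells at P5 and at P10 from PBS and from IL1B pups. O4+ cells were sorted first with magnetic beads and CD11B+ cells from what remained of the same brains, and the study's methods state that tissue was pooled. No mutant or transgene was used. The methods name the OF1 strain and a longer interval before collection at P5, and a description in the labels of the P10 samples repeats P5, whereas their titles and stage give P10.

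IL6 family cytokines, among them IL6, oncostatin M and leukemia inhibitory factor, signal through receptor complexes that share gp130, the product of Il6st. Il6ra encodes the chain that binds IL6, Osmr the chain that joins gp130 to bind oncostatin M, and JAK kinases held by these receptors phosphorylate STAT3, which then activates genes such as Socs3. The SOCS3 protein binds gp130 and dampens further signalling, and in the brain STAT3 activity is known from reactive astrocytes and from myeloid cells during inflammation.

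Each sample was hybridised to 1 array that measured 55681 probes, and between 52.9% and 65.4% of the probes of an array were well above background. Values are log2 intensities after background subtraction, made comparable by quantile normalization within each cell type (24 arrays) or, for differences between cell types, across the 48 arrays together. Calls required an adjusted p under 0.05 in limma and group medians more than 1.5-fold apart. Differences are between mean log2 values, and folds given without a bound are ratios of group medians, so that the 2 need not agree. The 6 arrays per group limit the precision of every value. Whether the arrays of 2 groups overlapped describes single genes, and the share of all probes without overlap was not counted. Il6ra, Il6st, Osmr, Stat3 and Socs3 were well above background on all 48 arrays, Upp1 on 46, Lrg1 on 42 and Saa3 on 28.

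The cell types were checked against marker lists in PBS pups at P10. All 10 oligodendrocyte lineage markers were called higher in O4+ cells, with a median difference of 4.04 on the log2 scale. All 8 microglia markers were called lower in O4+ cells, with a median O4+ minus CD11B+ difference of -4.62. They were still well above background on every O4+ array, with a summed log2 signal of 17.38 in the median PBS array at P5 and 16.13 at P10, and Csf1r was the brightest. Of 10 neutrophil and monocyte markers, 9 were lower in O4+ cells, with a median of -6.42 (-6.01 with 4 genes that were not well above background in O4+ cells set at the lowest signal that counts as such). The oligodendrocyte markers were likewise above background in all CD11B+ groups, with a median summed log2 signal of 13.78 in PBS pups at P5 and 15.39 at P10. In such bulk samples, fewer cells of a type and less RNA per cell cannot be told apart. Of the other lists, 8 of 10 endothelial markers were higher and 1 lower in O4+ cells, 5 of 8 astrocyte, 3 of 6 mural and 4 of 5 neuron markers were higher, 1 mural marker was lower, and 3 of 4 erythroid markers were lower.

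The promoter of Socs3 is shown because it was the only one among these genes with a match to the STAT motif, and those of Lrg1 and Saa3 because these genes had the largest differences at P5 in CD11B+ cells. All 8 genes were matched by symbol to the RefSeq promoter table (GRCm38.p6), which gave 10 promoters of 250 bases before a transcription start. Both strands were searched for TTCNNNGAA, the STAT motif. It was found in 1 of the 10 promoters, and in 2306 of 32841 promoters of the whole table (7.02%). The match is in capitals in the Socs3 promoter, and its first base lies 154 bases before the start. A motif for NF-kappaB, a factor activated by IL1B, was found in 0 of the 10 and in 7.25% of all promoters. The sequences, read 5′ to 3′ on the minus strand, lie at chr11:117969367-117969616 for Socs3, chr17:56121947-56122196 for Lrg1 and chr7:46715677-46715926 for Saa3.
Socs3 promoter: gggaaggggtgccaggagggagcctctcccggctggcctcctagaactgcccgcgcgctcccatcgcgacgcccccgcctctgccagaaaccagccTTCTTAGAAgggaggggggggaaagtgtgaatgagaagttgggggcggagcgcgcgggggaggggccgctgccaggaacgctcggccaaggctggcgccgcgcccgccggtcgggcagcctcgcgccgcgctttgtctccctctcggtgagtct
Lrg1 promoter: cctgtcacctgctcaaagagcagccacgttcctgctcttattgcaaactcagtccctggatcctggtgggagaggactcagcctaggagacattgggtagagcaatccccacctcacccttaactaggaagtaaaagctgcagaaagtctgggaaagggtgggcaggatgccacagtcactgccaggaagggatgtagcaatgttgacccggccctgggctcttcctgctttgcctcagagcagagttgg
Saa3 promoter: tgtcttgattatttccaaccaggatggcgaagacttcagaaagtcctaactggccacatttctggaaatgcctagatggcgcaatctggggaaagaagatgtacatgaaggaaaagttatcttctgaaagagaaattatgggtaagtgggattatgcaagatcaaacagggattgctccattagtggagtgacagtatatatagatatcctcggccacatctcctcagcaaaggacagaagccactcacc
These matches describe the letters of the window and say nothing about binding.

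Without IL1B, the receptor for IL6 and the feedback inhibitor Socs3 were far brighter in CD11B+ cells, and the oncostatin M receptor chain was brighter in O4+ cells. In PBS pups at P10, the Il6ra signal (probe at chr3:89674054-89674113 in mm9, as are all probe positions here) lay between 10.34 and 11.28 (median 10.68) in O4+ cells and between 15.36 and 15.67 (median 15.50) in CD11B+ cells. Socs3 (chr11:117827480-117827539) lay between 9.44 and 10.38 (median 9.81) in O4+ cells and between 14.42 and 14.71 (median 14.64) in CD11B+ cells. The arrays of the cell types did not overlap for either gene, and the O4+ arrays were the low ones. The O4+ minus CD11B+ difference was -4.77 for Il6ra (adjusted p = 3.74e-11) and -4.78 for Socs3 (SE 0.14, adjusted p = 4.97e-11). Il6st (chr13:113296586-113296645), the shared gp130 chain, lay between 10.41 and 10.82 (median 10.55) in O4+ cells and between 12.23 and 12.53 (median 12.50) in CD11B+ cells, again apart, with a difference of -1.87 (adjusted p = 5.5e-10). Osmr (chr15:6763686-6763745) had the opposite direction, with 6.75 to 7.78 (median 7.30) in O4+ cells and 5.53 to 6.76 (median 5.83) in CD11B+ cells. The highest CD11B+ array just overlapped the lowest O4+ array, and the median O4+ signal was 2.76-fold higher (log2 difference 1.29, or 0.82 with normexp, adjusted p = 0.000342).

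Stat3 was lower in O4+ cells as well. Its signal (chr11:100749598-100749657) lay between 12.74 and 13.01 in O4+ cells and between 13.54 and 13.82 in CD11B+ cells of PBS pups at P10, with no overlap and a difference of -0.77 (adjusted p = 6.85e-07). The other Stat3 probe (chr11:100759946-100760005) gave a larger difference, -1.42. Lrg1 (chr17:56259257-56259316), which encodes a secreted leucine-rich glycoprotein, lay between 5.72 and 8.03 in CD11B+ cells and was well above background on 1 of 6 O4+ arrays, with a difference of -2.62 (-0.95 with normexp, adjusted p = 4.78e-05 without it). Saa3 (chr7:53970389-53970448), an acute phase serum amyloid gene, was well above background on 0 of 6 O4+ and 3 of 6 CD11B+ arrays. Its level in CD11B+ cells was at least 1.5-fold higher (adjusted p = 0.00285), and it was not called with normexp. Such a bound sets the mean of the brighter group against the lowest signal that counts as well above background on each array of the dim group. Upp1 (chr11:9036114-9036173), which encodes uridine phosphorylase, was not called (log2 difference 0.17, adjusted p = 0.734), and its other probe (chr11:9018223-9018282) was well above background on 1 of 48 arrays.

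In total, 1 of the 8 genes (Osmr) was called higher and 6 were called lower in O4+ than in CD11B+ cells of PBS pups at P10, where 22.2% of all probes were called higher and 20.2% lower. The median O4+ minus CD11B+ difference was -2.17 over the 8 genes (-1.32 with Saa3 at its bound, -0.85 with normexp background correction) and 0.00 over all probes. No slide held PBS arrays of both cell types at P10. With slide as a random block, adjusted p ranged from 2.32e-09 for Socs3 to 0.0182 for Saa3 among these 7 calls, and none was lost. At P5 the same O4+ minus CD11B+ differences in PBS pups were -3.22 for Il6ra, -2.15 for Socs3, -1.01 for Il6st, -0.30 for Stat3 and 1.15 for Osmr, given without a test. On slide 2, which held PBS arrays of both cell types at P5, the Osmr difference was 0.36.

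**Figure D1:**
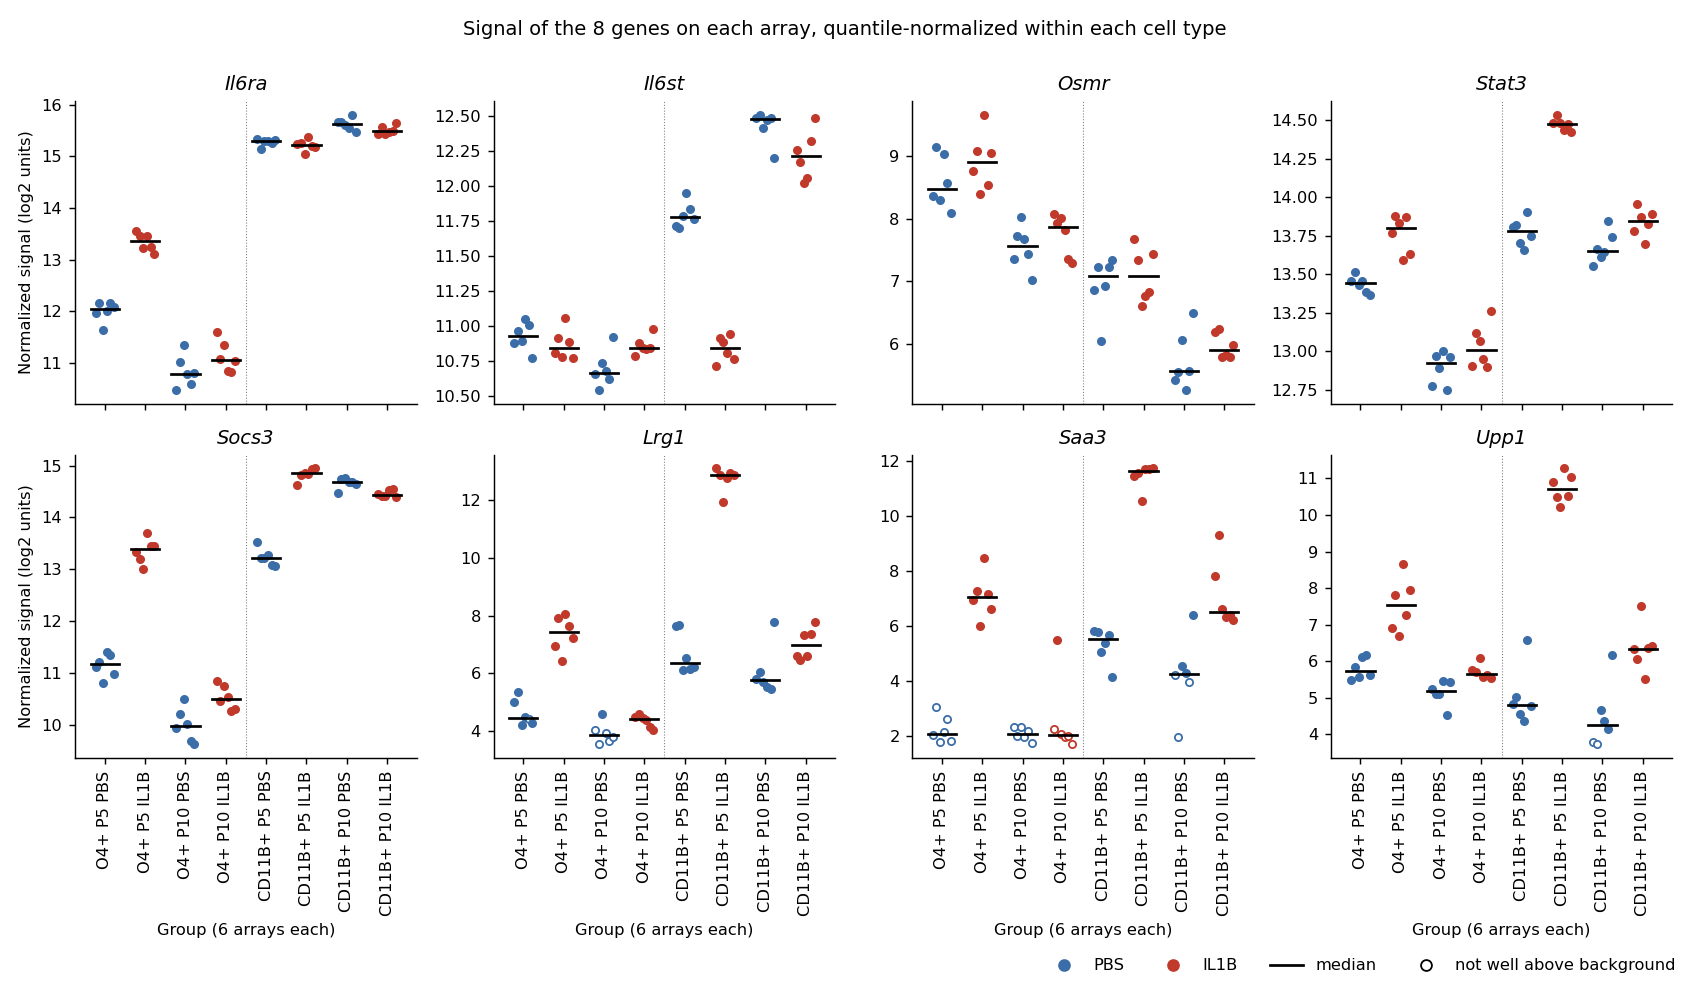
Normalized log2 signal of the 8 genes on each array (1 dot per array, 6 arrays per group, black line at the median, hollow dots not well above background); the cell types on either side of the dotted line were normalized separately. Lrg1, Saa3 and Upp1 stand out in CD11B+ cells of IL1B pups at P5 (medians 12.88, 11.64 and 10.70), and Socs3 in O4+ cells of the same pups (median 13.39 against 11.17 with PBS).

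In O4+ cells 2 h after the last IL1B injection at P5, the receptor chain gene Il6ra and the targets Socs3, Lrg1, Saa3 and Upp1 were higher than with PBS. Socs3 lay between 10.80 and 11.40 (median 11.17) with PBS and between 13.01 and 13.69 (median 13.39) with IL1B. Il6ra lay between 11.64 and 12.16 (median 12.04) with PBS and between 13.10 and 13.56 (median 13.35) with IL1B. The IL1B arrays were all above the PBS arrays for both genes, with differences of 2.21 for Socs3 (4.66-fold) and 1.34 for Il6ra (2.48-fold). Lrg1 lay between 4.18 and 5.34 (median 4.45) with PBS and between 6.42 and 8.05 (median 7.42) with IL1B, a difference of 2.74. For Upp1 the PBS arrays lay between 5.47 and 6.17 (median 5.72) and the IL1B arrays between 6.70 and 8.65 (median 7.53), a difference of 1.75. With normexp these 2 differences were 1.37 and 1.15. Saa3 was well above background on 0 of 6 PBS and 6 of 6 IL1B arrays and was at least 11-fold higher with IL1B, where it lay between 6.01 and 8.48. None of these groups overlapped, without a count over all probes to set beside this. Stat3 (difference 0.33) did not overlap either, although its other probe did, and its medians were under 1.5-fold apart. Osmr (0.33) and Il6st (-0.06) overlapped, and their medians were also under 1.5-fold apart. Within slides 1 and 2, which held arrays of both treatments, the differences were 1.92 and 2.44 for Socs3, 1.39 and 1.70 for Il6ra, 3.11 and 2.73 for Lrg1, 1.91 and 1.34 for Upp1, 0.43 and 0.37 for Stat3, 0.30 and 0.575 for Osmr, and -0.06 and -0.03 for Il6st.

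In CD11B+ cells at P5, Lrg1, Saa3 and Upp1 had their highest values of all groups with IL1B, and the gp130 gene Il6st was lower. Lrg1 lay between 6.10 and 7.66 (median 6.37) with PBS and between 11.94 and 13.11 (median 12.88) with IL1B, a difference of 6.04. Saa3 lay between 4.14 and 5.80 (median 5.52) with PBS and between 10.55 and 11.75 (median 11.64) with IL1B, a difference of 6.16. Upp1 lay between 4.36 and 6.58 (median 4.80) with PBS and between 10.21 and 11.28 (median 10.70) with IL1B, a difference of 5.72 (3.05 with both of its probes averaged). The IL1B arrays of these 3 genes were far above every PBS array. Socs3 lay between 13.07 and 13.52 with PBS and between 14.63 and 14.95 with IL1B, a difference of 1.60 (3.09-fold), and Stat3 between 13.66 and 13.90 and between 14.42 and 14.54, a difference of 0.70 (1.62-fold). Il6st lay between 11.70 and 11.95 with PBS and between 10.71 and 10.94 with IL1B, with no overlap and a difference of -0.96. Il6ra (difference -0.06, or 0.11 with arrays scaled to the 75th percentile) and Osmr (0.17) overlapped between the treatments. On slide 2, with 1 PBS and 4 IL1B arrays, the differences were 6.66 for Lrg1, 7.55 for Saa3, 6.05 for Upp1 and 1.81 for Socs3. There they were 0.72 for Stat3, -0.91 for Il6st, -0.06 for Il6ra and -0.25 for Osmr. Over all slides, the Osmr difference was near 0 (-0.01) without PBS replicate 3, which lay on slide 3.

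Set side by side at P5, the IL1B difference in O4+ cells minus that in CD11B+ cells was 1.46 for Il6ra, 0.85 for Il6st and 0.76 for Socs3, and -3.06 for Lrg1 and -3.80 for Upp1. No such value is given for Saa3, since its rise in O4+ cells is known only as a lower bound. Il6ra was higher with IL1B in O4+ cells, where its probe had the lower signal of the cell types with PBS, and the difference was near 0 in CD11B+ cells. Il6st was lower with IL1B in CD11B+ cells, where its probe had the higher signal with PBS, and the difference was near 0 in O4+ cells. These differences of responses carry no test, since they rest on the P5 arrays.

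**Figure D2:**
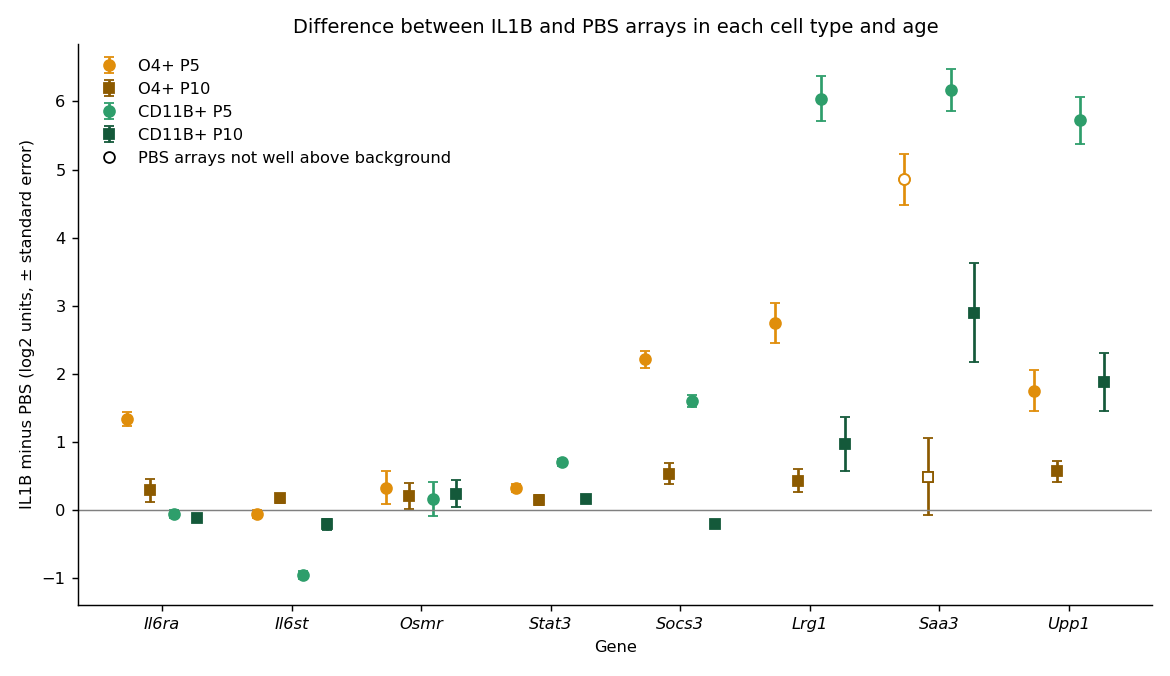
IL1B minus PBS difference of each gene on the log2 scale, with its standard error, in each cell type and age (6 arrays per group, hollow for Saa3 in O4+ cells, whose PBS arrays were not well above background). Lrg1, Saa3 and Upp1 lie near 6 in CD11B+ cells at P5 (6.04, 6.16 and 5.72), and at P10 the differences lie between -0.21 and 2.90.

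Among 82 other genes of the pathway, grouped as ligands, receptors, kinases and STATs, inhibitors, STAT3 targets and acute phase genes, the ligand genes Osm and Il6 rose with IL1B in both cell types at P5. These lists were chosen with earlier results of the same arrays known, so that their tests and counts at P5 are no independent evidence. Osm, encoding oncostatin M, had a mean log2 signal of 7.15 with PBS and 9.12 with IL1B in O4+ cells (difference 1.97, SE 0.14, adjusted p = 6.37e-06; 2.09 with slide as a block, and adjusted p at most 0.00117 over all settings). In CD11B+ cells it went from 10.60 to 11.36 (difference 0.76, SE 0.07, adjusted p = 1.3e-05; 0.85 with slide as a block, and adjusted p at most 0.0128 over all settings). Il6 went from 4.80 to 6.59 in O4+ cells (difference 1.78, adjusted p = 0.00167) and from 8.48 to 9.49 in CD11B+ cells (difference 1.01, adjusted p = 5.84e-05). Blocking on slide gave the highest adjusted p of any setting for Il6, 0.0458 in O4+ and 0.0267 in CD11B+ cells. Ebi3, the beta chain of IL27 and IL35, rose in O4+ cells from 10.54 to 11.79 (adjusted p = 1.46e-05). In CD11B+ cells it differed by 0.29 with medians under 1.5-fold apart, and the responses differed between the cell types by 1.05 (adjusted p = 3.39e-06). Lif, encoding leukemia inhibitory factor, fell by 0.83 in CD11B+ cells (adjusted p = 0.0475). This call was lost with slide as a block (adjusted p = 0.206, range over settings 0.00761 to 0.206) and for 11 of the 12 arrays left out in turn.

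The receptor genes other than Il6ra, Il6st and Osmr moved in separate ways. Lifr, which encodes the chain that binds leukemia inhibitory factor, rose in CD11B+ cells at P5 from a mean of 9.35 to 10.96 (difference 1.61, SE 0.07, adjusted p = 8.04e-08, 3.09-fold; 1.78 with slide as a block). In O4+ cells the Lifr difference was 0.22, and the O4+ minus CD11B+ difference of responses was -1.28 (adjusted p = 3.76e-09). Il27ra, which pairs with gp130 to bind IL27, fell by 0.91 in O4+ cells (adjusted p = 0.0199), and lost the call with slide as a block (adjusted p = 0.0665, range over settings 0.00914 to 0.102) and for 6 of the 12 arrays left out in turn. Cntfr and Il11ra1, the chains for ciliary neurotrophic factor and IL11, were not called in any IL1B comparison, nor were the ligand genes Cntf, Clcf1, Ctf1, Il27 and Il11.

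Of 30 known STAT3 targets, 22 rose in O4+ cells and 14 in CD11B+ cells at P5, where 3.44% and 4.06% of all probes were called higher, with median differences of 0.95 and 0.61 on the log2 scale. The counts were 18 and 12 with slide as a block. Bcl3, an NF-kappaB coregulator, rose by 2.99 in O4+ cells. Of 20 acute phase genes, 6 rose in O4+ cells and 9 in CD11B+ cells. Lcn2, the siderophore-binding lipocalin, rose from a mean of 6.18 to 12.82 in O4+ cells (difference 6.64) and by 4.99 in CD11B+ cells. Serpina3g, a protease inhibitor, rose by 6.36 in O4+ and 7.29 in CD11B+ cells, and Hp, encoding haptoglobin, by 3.15 and 3.81, with 4 of 6 O4+ PBS arrays well above background. Lcn2 and Serpina3g were known as large rises when the lists were made. Steap4, a metalloreductase, was called higher in both cell types. It was at least 5.5-fold higher in O4+ cells, and in CD11B+ cells it was well above background on 1 of 6 PBS and 6 of 6 IL1B arrays. Orm1, an acute phase glycoprotein, was at least 10.5-fold higher in CD11B+ cells. In O4+ cells the called genes Orm1 and Il1rn were well above background on no array of either treatment.

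Inhibitors of the pathway were called in both cell types at P5. Of 10 inhibitors, Ptpn6 and Socs2 rose in O4+ cells, and Cish, Ptpn1, Socs1 and Socs2 rose while Socs5 fell by 0.72 in CD11B+ cells. Of 7 kinases and STATs, limma called 0 in O4+ cells (4 with unadjusted p under 0.05, 0 by the equal-variance test). Among all 55681 probes, 5557 that were higher and 10790 that were lower with IL1B in O4+ cells had an unadjusted p under 0.05. In all, 33 of the 82 pathway genes rose and 2 fell in O4+ cells, where 3.44% of all probes rose and 1.49% fell (median difference 0.36, or 0.21 with normexp, all probes -0.04). In CD11B+ cells 31 rose and 2 fell, against 4.06% and 5.25% of all probes (median 0.41, all probes -0.01). After blocking on slide, 28 rose and 1 fell in O4+ cells (median 0.34), and 27 rose and 1 fell in CD11B+ cells (median 0.54). Within slides 1 and 2 the O4+ medians were 0.38 and 0.32. The response differed between the cell types at P5 for 36 of the 82 genes, against 10.7% of all probes, and for 21 with slide as a block. The 36 include Orm1, Orm2, Il1rn and Saa2, whose O4+ signals were well above background on at most 1 of 12 arrays. Among genes above background on all these arrays, O4+ minus CD11B+ was 2.14 for Lcn2, 1.69 for Icam1, 1.59 for Batf and -1.45 for Cish.

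**Figure D3:**
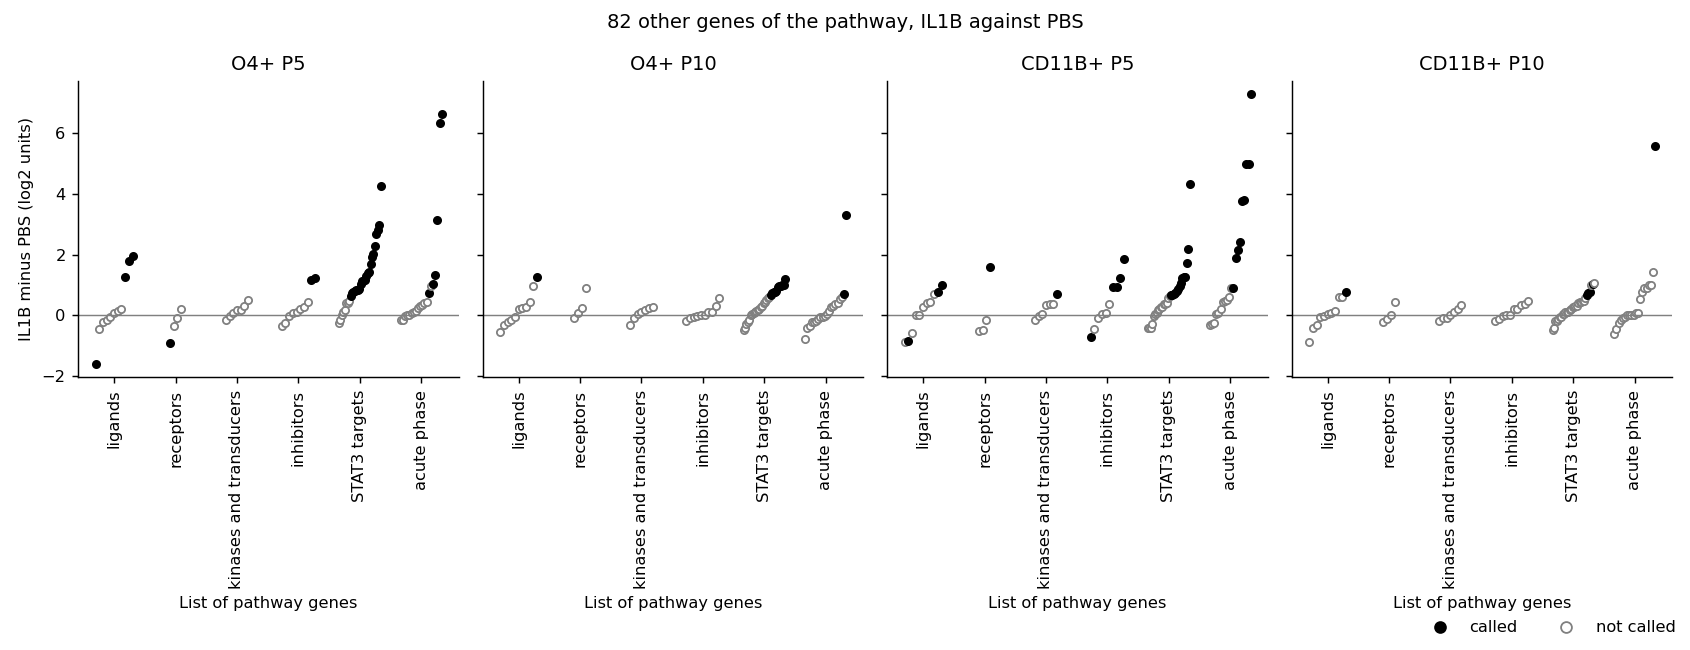
IL1B minus PBS difference of 82 other pathway genes on the log2 scale, by list, in each cell type and age, with called genes as filled dots. At P5, 33 genes were called higher in O4+ and 31 in CD11B+ cells, and at P10, 14 and 6.

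Markers of other cell types moved with these results at P5. All 10 neutrophil and monocyte markers rose with IL1B in CD11B+ cells (median difference 3.43; 8 called and a median of 3.80 with slide as a block). Their summed log2 signal lay between 14.86 and 16.03 (median 15.37) with PBS and between 18.54 and 19.13 (median 18.95) with IL1B, and S100a9, a neutrophil calcium-binding protein gene, was the brightest. In O4+ cells 9 of the 10 rose (median 2.62, or 2.57 with 3 genes at their lower bound; 4 called with slide as a block, and medians of 3.43 and 1.49 within slides 1 and 2). Their summed signal there lay between 9.15 and 9.82 (median 9.41) on the PBS arrays and between 11.17 and 15.07 (median 13.95) on the IL1B arrays, and the defining markers Ngp, Ltf and Ccr2 were well above background on no O4+ PBS array. Microglia markers rose in O4+ cells for 7 of 8 genes (median 1.06, 7 with slide as a block), and their summed signal lay between 16.92 and 17.52 (median 17.38) on the PBS arrays and between 18.16 and 18.49 (median 18.37) on the IL1B arrays. In CD11B+ cells 1 of 8 microglia markers, P2ry12, fell, as did 3 of 6 mural markers (Acta2, Pdgfrb and Rgs5; median -0.82), 1 of 4 erythroid (Hba-a1) and 1 of 8 astrocyte markers (S100b), while 2 of 10 oligodendrocyte lineage markers rose and 2 fell. With slide as a block these counts were 0, 0, 0, 1, 1 and 0. Of the mural, erythroid, astrocyte, oligodendrocyte and neuron markers limma called 0 in O4+ cells (4, 0, 1, 7 and 3 with unadjusted p under 0.05, 0 by the equal-variance test), with 2 oligodendrocyte markers lower after blocking on slide, and 0 neuron markers in CD11B+ cells (0 with unadjusted p under 0.05, 0 by the equal-variance test). Among all 55681 probes, 5557 that were higher and 10790 that were lower with IL1B in O4+ cells had an unadjusted p under 0.05. In CD11B+ cells the summed neuron signal lay between 13.09 and 13.27 with PBS and between 12.93 and 16.08 (median 13.01) with IL1B. Endothelial markers fell for 8 of 10 genes in each cell type, with medians of -0.80 and -0.96, and for 3 and 4 of them with slide as a block. The part of these cells in the values of Socs3, Il6ra, Lrg1, Saa3, Upp1 and the pathway genes was not tested.

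**Figure D4:**
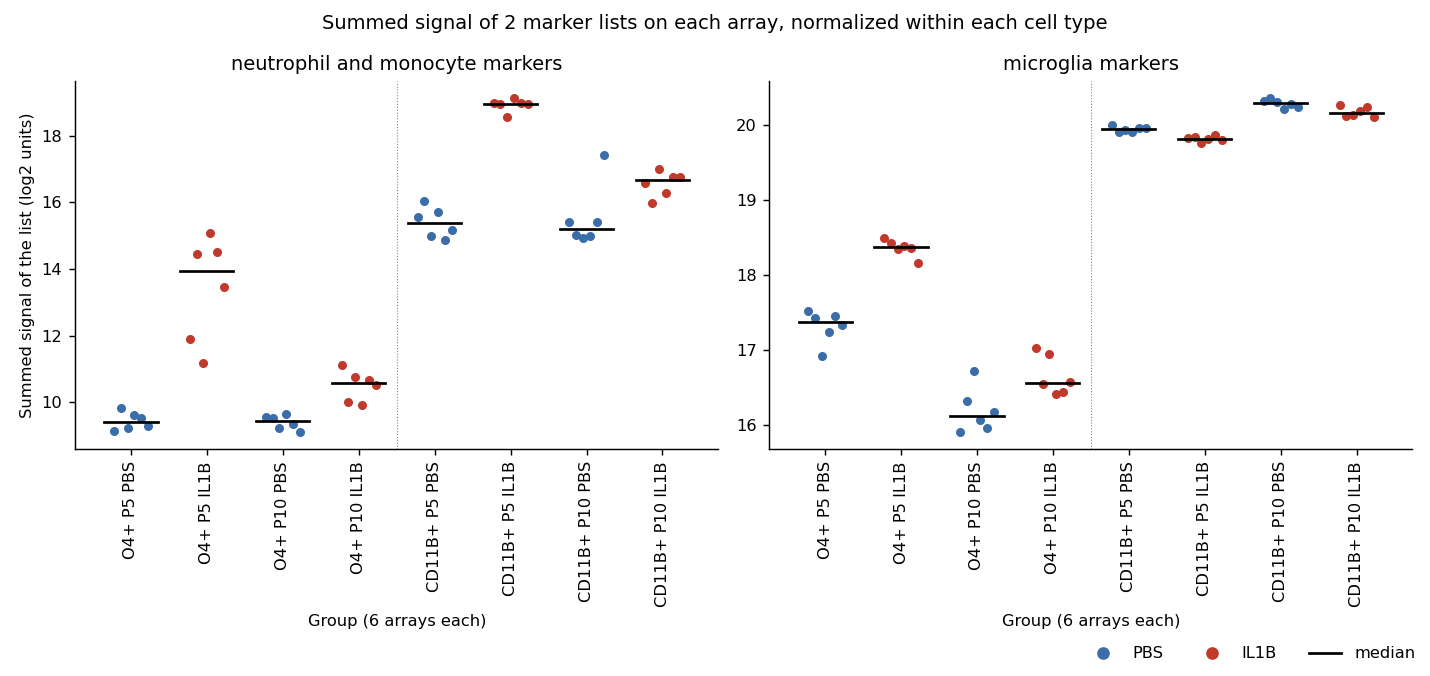
Summed log2 signal of 10 neutrophil and monocyte markers and of 8 microglia markers on each array (1 dot per array, black line at the median of 6); the cell types were normalized separately. The neutrophil and monocyte sum is highest in CD11B+ cells of IL1B pups at P5 (median 18.95), and 1 CD11B+ PBS array at P10 lies at 17.42, above its group.

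At P10, 5 days after the last injection, the question was whether any of the 8 genes still differed. In O4+ cells the differences were small and positive for 7 of the 8, with a median of 0.29 against -0.02 over all probes, and Saa3 had no measured difference. With Saa3 counted the median was 0.36, and 0.16 with normexp or 0.225 with arrays scaled to the 75th percentile. Stat3 turned to -0.02 with that scaling. Of the 8 genes 0 were called by limma, where 2.49% of all probes were called higher and 1.41% lower. The unadjusted p was under 0.05 for 4 of the 8, and the equal-variance test also called 0. Among all 55681 probes, 6265 that were higher and 6999 that were lower with IL1B had an unadjusted p under 0.05. Upp1 lay between 4.53 and 5.45 (median 5.17) with PBS and between 5.54 and 6.08 (median 5.66) with IL1B. All IL1B arrays were above all PBS arrays, and the difference of 0.57 (SE 0.15, adjusted p = 0.0369) went with medians 1.40-fold apart, under the threshold. Its adjusted p was 0.162 with slide as a block (range over settings 0.017 to 0.162), and within slides 4 and 5 the difference was 0.64 and 0.10. Socs3 lay between 9.63 and 10.51 (median 9.98) with PBS and between 10.28 and 10.84 (median 10.50) with IL1B, overlapping, with a difference of 0.53 (SE 0.16, adjusted p = 0.0508). Its difference was 0.61 with slide as a block (adjusted p = 0.0663, range over settings 0.0136 to 0.106) and 0.59 and 0.68 within slides 4 and 5. Lrg1 was well above background on 1 of 6 PBS and 6 of 6 IL1B arrays. It differed by 0.43 (adjusted p = 0.13), and was called without replicate 3 of the PBS arrays (0.57, adjusted p = 0.0199, range over settings 0.0199 to 0.268). Il6ra (0.29), Il6st (0.17), Osmr (0.21) and Stat3 (0.14) had adjusted p values from 0.12 to 0.563, and within slides 4 and 5 they differed by 0.50 and 0.25, 0.19 and 0.06, 0.36 and 0.28, and 0.14 and 0.30. Saa3 was well above background on 0 of 6 PBS arrays and 1 of 6 IL1B arrays, replicate 2, at 5.51.

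In CD11B+ cells at P10, Saa3 and Upp1 were called higher with IL1B, 2 of the 8 genes, where 1.09% of all probes were called higher and 1.08% lower. Saa3 lay between 1.94 and 6.41 (median 4.24) with PBS, well above background on 3 of 6 arrays, and between 6.23 and 9.32 (median 6.51) with IL1B. Upp1 lay between 3.73 and 6.17 (median 4.25) with PBS, well above background on 4 of 6 arrays, and between 5.52 and 7.50 (median 6.34) with IL1B. The groups overlapped for both genes through PBS replicate 6, at 6.41 for Saa3 and 6.17 for Upp1, above the next PBS arrays at 4.53 and 4.67. The differences were 2.90 for Saa3 (SE 0.73, adjusted p = 0.0413) and 1.88 for Upp1 (SE 0.43, adjusted p = 0.0308), or 1.22 and 0.78 with normexp, and 0.93 for Upp1 with both of its probes averaged. Without that array they were 3.34 (adjusted p = 0.00992) and 2.22 (adjusted p = 0.00243), and Lrg1 was called too (1.31, adjusted p = 0.00822), whereas with all arrays Lrg1 differed by 0.97 (SE 0.40, adjusted p = 0.171). Leaving out another array ended the Saa3 call in each case and the Upp1 call in each case but IL1B replicate 4 (adjusted p = 0.0363), and the adjusted p reached 0.0833 and 0.0747.

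These calls were also lost with slide, scan day or replicate number as a block, and that of Saa3 with the equal-variance test. Slide 9 held PBS replicates 5 and 6 and IL1B replicates 1 to 5, and the other PBS arrays lay on slide 6. With slide as a block, which equals the difference within slide 9, Saa3 differed by 2.11 (adjusted p = 0.544), Upp1 by 1.19 (adjusted p = 0.566) and Lrg1 by 0.25 (adjusted p = 0.954). Over all settings the adjusted p ranged from 0.00308 to 0.544 for Saa3, from 0.00243 to 0.566 for Upp1 and from 0.00822 to 0.954 for Lrg1. The remaining genes lay close together in the treatments. Socs3 lay between 14.46 and 14.77 (median 14.69) with PBS and between 14.39 and 14.54 (median 14.43) with IL1B, a difference of -0.21 (adjusted p = 0.0485) with medians under 1.5-fold apart. The Socs3 difference was -0.19 within slide 9 (adjusted p = 0.479, range over settings 0.0301 to 0.663). Il6st differed by -0.21, Stat3 by 0.16, Il6ra by -0.12 and Osmr by 0.24, with adjusted p values from 0.125 to 0.53. Within slide 9 these differences were -0.18, 0.03, -0.16 and -0.06, so that Osmr turned its direction. The median over the 8 genes was 0.20, against 0.00 over all probes, and -0.015 against 0.01 with slide as a block.

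**Figure D5:**
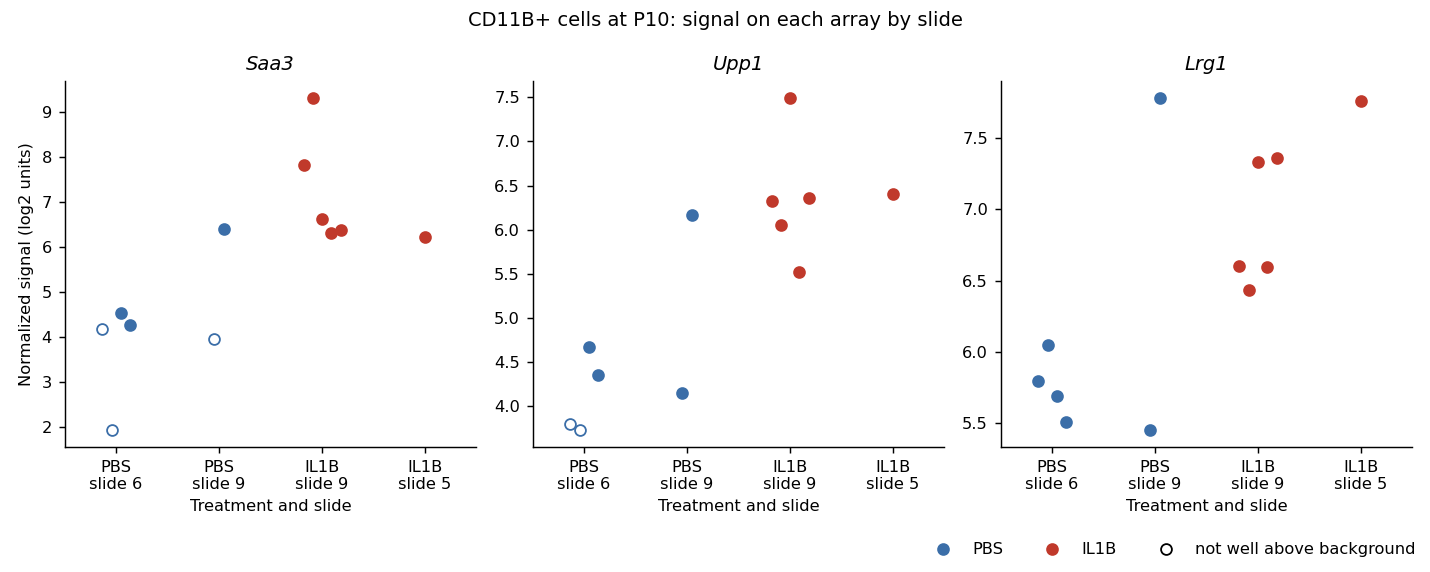
Log2 signal of Saa3, Upp1 and Lrg1 in CD11B+ cells at P10 on each array, by treatment and slide. The PBS array with the highest value of each gene, replicate 6 (Saa3 6.41, Upp1 6.17, Lrg1 7.78), lies on slide 9 beside 5 of the IL1B arrays.

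The P10 response differed between O4+ and CD11B+ cells for 2 of the 8 genes, Socs3 and Il6st, against 7.56% of all probes. For Socs3 the O4+ response exceeded the CD11B+ response by 0.775 (SE 0.18, adjusted p = 0.0103), the values above being higher with IL1B in O4+ cells and lower in CD11B+ cells. Under 7 other settings, chosen after seeing the data, this difference lay between 0.61 and 0.82 (adjusted p between 0.00607 and 0.0419). For Il6st it was 0.38 (SE 0.11, adjusted p = 0.031). Il6st lay between 10.54 and 10.92 (median 10.67) with PBS and between 10.79 and 10.98 (median 10.84) with IL1B in O4+ cells. In CD11B+ cells it lay between 12.20 and 12.51 (median 12.48) with PBS and between 12.02 and 12.49 (median 12.21) with IL1B, so that the treatments overlapped in both cell types. The Il6st result was lost with slide as a block (0.34, adjusted p = 0.0667), with cell types paired by replicate number within each treatment (0.38, adjusted p = 0.0614), with scaling to a percentile (0.26, adjusted p = 0.115) and with the deposited values (0.22, adjusted p = 0.181), and its adjusted p ranged from 0.0116 to 0.181 over all settings. For Upp1 the difference was -1.35 (adjusted p = 0.0834), and it passed with that pairing (adjusted p = 0.0427) and without CD11B+ PBS replicate 6 (-1.69, adjusted p = 0.00384, range over settings 0.00384 to 0.5). No difference of responses is given for Saa3, which was well above background on 0 of 6 PBS and 1 of 6 IL1B O4+ arrays at P10.

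Of the other pathway genes, 14 of 82 were higher and 0 lower with IL1B in O4+ cells at P10, where 2.49% and 1.41% of all probes were (median difference 0.16, or 0.10 with normexp, 0.10 with the deposited values and 0.075 with scaling to the 75th percentile; 14 and a median of 0.18 with slide as a block; medians of 0.24 and 0.10 within slides 4 and 5). Osm rose from a mean of 5.28 to 6.56 (difference 1.27, SE 0.19, adjusted p = 0.00324; 1.23 with slide as a block, and adjusted p at most 0.0245 over all settings). Of 30 STAT3 targets, 11 rose, with a median of 0.43, and the count was 11 with slide as a block. They included the survival kinase gene Pim1 (1.20, adjusted p = 0.000927) and the transcription factor genes Batf (0.99) and Cebpb (0.97). Of 20 acute phase genes, Serpina3g (3.33, adjusted p = 0.000767; 3.49 with slide as a block, and adjusted p at most 0.0107 over all settings) and Serpina3n rose. Il6 was well above background on 2 of 12 arrays, both with IL1B. By limma, 0 of 4 receptors, 0 of 7 kinases and STATs and 0 of 10 inhibitors were called, with unadjusted p under 0.05 for 2, 3 and 4 of them, and the equal-variance test called 0 inhibitors. Among all 55681 probes, 6265 that were higher and 6999 that were lower with IL1B had an unadjusted p under 0.05.

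In CD11B+ cells at P10, 6 of the 82 genes were higher with IL1B and 0 lower, against 1.09% and 1.08% of all probes (median difference 0.11, or 0.19 with the deposited values and 0.185 with only probes above background). They were Osm (10.71 to 11.49, difference 0.78, SE 0.11, adjusted p = 0.0137), Serpina3g (5.60, adjusted p = 0.0179), and the STAT3 targets Batf (1.03), Pim1 (0.78), Bcl3 (0.75) and Irf1, the last an interferon-regulated transcription factor gene. By limma 0 of the 82 were called with slide as a block, and the median was 0.08, with an adjusted p of 0.237 for Osm (difference 0.61, range over settings 8.9e-05 to 0.237) and 0.466 for Serpina3g (3.49, range 0.000202 to 0.466). With an array left out in turn, the Irf1 call was lost for 9 of 12 arrays and the Pim1 call for 4 of 12. Of the 82 genes, 42 had an unadjusted p under 0.05, and the equal-variance test called 6. Among all 55681 probes, 5983 that were higher and 6807 that were lower with IL1B had an unadjusted p under 0.05. Without PBS replicate 6, 18 were called. The response at P10 differed between the cell types for 11 of the 82 genes, against 7.56% of all probes. It was larger in O4+ cells for the cyclin gene Ccnd1 (0.95, adjusted p = 0.000281), Fos (0.95, adjusted p = 0.00071) and Cebpd (0.60), and larger in CD11B+ cells for Pim3 (-0.88), Nfil3 (-0.59) and Cish (-0.45).

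The marker lists moved at P10 as well. In O4+ cells 7 of 10 neutrophil and monocyte markers rose (median 1.59, or 0.94 with 2 genes at their lower bound and 2 without a bound left out; 5 and 1.71 with slide as a block; 1.72 and 2.24 within slides 4 and 5), with summed signals between 9.12 and 9.66 (median 9.45) on PBS arrays and between 9.93 and 11.14 (median 10.59) on IL1B arrays. Ngp, Ltf, Mpo and Ccr2 were well above background on no O4+ PBS array at P10. Microglia markers rose for 4 of 8 genes in O4+ cells (median 0.53; 2 with slide as a block), with sums between 15.91 and 16.72 (median 16.13) on PBS arrays and between 16.42 and 17.03 (median 16.56) on IL1B arrays. Astrocyte markers rose for 3 of 8 and erythroid markers for 2 of 4, and of 10 oligodendrocyte lineage markers 2 rose and 1 fell. Of the endothelial, mural and neuron markers limma called 0 in O4+ cells (1, 1 and 3 with unadjusted p under 0.05, 0 by the equal-variance test). In CD11B+ cells limma called 0 of the 10 neutrophil and monocyte markers (9 with unadjusted p under 0.05, 0 by the equal-variance test), with a median of 1.16 that was 0.29 with slide as a block. Their summed signal lay between 14.92 and 17.42 (median 15.21) with PBS and between 15.98 and 17.00 (median 16.67) with IL1B. The array at 17.42 was PBS replicate 6, the one with the highest Saa3, Upp1 and Lrg1 of its group. The median summed signal of the oligodendrocyte markers in CD11B+ cells at P10 was 15.39 with PBS and 14.48 with IL1B, and 1 of 10 was called lower. The erythroid sum had medians of 16.20 with PBS and 17.57 with IL1B, with overlapping arrays. The neuron sum lay between 13.48 and 14.00 (median 13.79) with PBS and between 13.05 and 13.22 (median 13.15) with IL1B, with no overlap, and 1 of 5 neuron markers, Snap25, fell. Of 8 astrocyte markers 1 rose, and limma called 0 microglia, endothelial, mural and erythroid markers (5, 4, 2 and 3 with unadjusted p under 0.05, 0 by the equal-variance test). Unadjusted p was under 0.05 for 6265 probes higher and 6999 lower with IL1B in O4+ cells, of 55681 in all. In CD11B+ cells these numbers were 5983 and 6807. With slide as a block, which leaves only the comparison within slide 9, limma called 0 markers of any list in CD11B+ cells at P10. The part of these cells in the P10 results was not tested.

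Between P5 and P10 in PBS pups, Il6ra, Osmr, Socs3 and Lrg1 fell in O4+ cells, while Socs3 and Il6st rose in CD11B+ cells. This comparison shares its P5 PBS arrays with the contrast that chose the genes, and its P10 PBS arrays with the P10 comparison. In O4+ cells Il6ra fell by 1.17 (SE 0.14, adjusted p = 6.6e-05), with arrays between 11.64 and 12.16 at P5 and between 10.47 and 11.35 at P10. Socs3 fell by 1.15 (SE 0.16, adjusted p = 0.000126), with arrays between 10.80 and 11.40 at P5 and between 9.63 and 10.51 at P10. Osmr fell by 1.05 (SE 0.21, adjusted p = 0.00227), with arrays between 8.10 and 9.15 (median 8.47) at P5 and between 7.02 and 8.03 (median 7.56) at P10. The ages did not overlap for Il6ra, Socs3 or Osmr, without a count over all probes to set beside this. Lrg1 fell by 0.71 (SE 0.23, adjusted p = 0.0297) and was well above background on 5 of 6 arrays at P5 and 1 of 6 at P10. Its call was lost with slide or scan day as a random block (adjusted p = 0.174, range over settings 0.00956 to 0.174), with replicate number as a block, with normexp (-0.16), and, through the fold, with the deposited values, scaling to the 75th percentile or all 48 arrays normalized together. It was also lost without replicates 1, 2 or 4 at P5 or replicates 2, 5 or 6 at P10, with adjusted p between 0.0446 and 0.0659. In all 4 of the 8 genes were called lower and 0 higher (8.97% and 7.87% of all probes), with a median of -0.68 (-0.40 with normexp) against 0.02 over all probes. Stat3 (-0.55, adjusted p = 1.37e-05) and Upp1 (-0.65, adjusted p = 0.0126) did not overlap between the ages, but their medians were under 1.5-fold apart, as were those of Il6st (-0.24). Upp1 was called lower with the fold taken from means, and without replicates 1, 3 or 6 at P5 or replicates 1, 4 or 6 at P10, and the Stat3 difference was -0.22 with arrays scaled to the 75th percentile.

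In CD11B+ cells Socs3 rose by 1.43 from P5 to P10 (SE 0.08, adjusted p = 2.24e-06, 2.77-fold), with arrays between 13.07 and 13.52 (median 13.22) at P5 and between 14.46 and 14.77 (median 14.69) at P10. Il6st rose by 0.64 (SE 0.06, adjusted p = 4.39e-05, 1.63-fold), with arrays between 11.70 and 11.95 (median 11.78) at P5 and between 12.20 and 12.51 (median 12.48) at P10. The ages did not overlap for either gene. Osmr fell by 1.21 (0.69 with normexp; SE 0.26, adjusted p = 0.00544), with arrays between 6.04 and 7.34 (median 7.08) at P5 and between 5.26 and 6.49 (median 5.56) at P10, which overlapped. The Osmr call held with slide as a random block (adjusted p = 0.0293) and was lost with scan day as one (adjusted p = 0.111, range over settings 0.00042 to 0.111). So 2 of the 8 genes were called higher and 1 lower, against 4.65% and 3.62% of all probes, with a median of -0.32 against 0.00 over all probes. The median was -0.13 with normexp and -0.18 with all probes of a gene averaged. Without replicate 6 at P10, Saa3 was called lower too. Socs3 and Il6st kept their calls with slide as a random block (adjusted p = 3.13e-05 and 0.000666). No slide held PBS arrays of both ages in either cell type.

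The other pathway genes fell with age in O4+ cells for 31 of 82 and rose for 8 (8.97% and 7.87% of all probes; median -0.39, or -0.235 with normexp), and 20 of 30 STAT3 targets were among those that fell. Osm fell by 1.86 (adjusted p = 4.67e-06) and Ebi3 by 0.89 in these cells, and Il6 fell at least 1.64-fold to below background. In CD11B+ cells 12 fell and 3 rose, against 3.62% and 4.65% of all probes (median -0.04, and at the lowest -0.10 with scaling to the 75th percentile). Il6 fell by 0.90 (adjusted p = 0.0151) and Lif fell by 1.05 (adjusted p = 0.023), calls that were lost with scan day as a random block (adjusted p = 0.221 and 0.307, the highest over all settings), and for Lif with 4 of 12 arrays left out. Clcf1, a cytokine that acts through the ciliary neurotrophic factor receptor, rose by 1.24 (adjusted p = 0.000246). The counts were 29 and 7 in O4+ cells and 9 and 2 in CD11B+ cells with slide as a random block. At P10 the ligand genes Osm (O4+ minus CD11B+ -5.78, adjusted p = 1.09e-11) and Ebi3 (-4.65) were lower in O4+ than in CD11B+ cells with PBS, and the receptor gene Cntfr (3.00) was higher. Of the 82 genes, 10 were higher and 47 lower, where 22.2% and 20.2% of all probes were (median -1.03, or -0.67 with normexp), and 9 and 45 with slide as a random block. The IL1B response of the pathway genes differed between P5 and P10 for 32 of 82 in O4+ cells (13.1% of all probes) and 32 of 82 in CD11B+ cells (16.8%).

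Microglia markers fell with age in O4+ PBS cells for 7 of 8 genes (median -1.23, 7 with slide as a random block), beside Il6ra, Socs3 and Osm, and P2ry12 and Tmem119 rose in CD11B+ cells. Of the neutrophil and monocyte markers Mpo and Plac8 fell in O4+ cells, and limma called 0 of 10 in CD11B+ cells (0 at unadjusted p under 0.05, 0 by the equal-variance test). Endothelial markers fell for 6 of 10 genes in O4+ cells (median -0.84) and 9 of 10 in CD11B+ cells (median -0.71), beside Osmr. With age 4 oligodendrocyte markers rose and 2 fell in O4+ cells, and 7 rose in CD11B+ cells. Mural markers fell for 4 of 6 and erythroid markers for 3 of 4 in O4+ cells, and of 5 neuron markers 1 rose in O4+ cells, and 1 rose and 3 fell in CD11B+ cells. Of 8 astrocyte markers 1 rose and 1 fell in O4+ cells and 1 rose in CD11B+ cells, where limma called 0 mural and 0 erythroid markers (0 with unadjusted p under 0.05, 0 by the equal-variance test). Their part in the age differences was not tested.

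The levels of each gene put the 4 groups of a cell type in different orders. Socs3 in O4+ cells was highest in IL1B pups at P5, followed by PBS pups at P5 and then by IL1B and PBS pups at P10, and the last 3 overlapped as neighbours. In CD11B+ cells the Socs3 medians ran 14.85 with IL1B at P5, 14.69 with PBS at P10, 14.43 with IL1B at P10 and 13.22 with PBS at P5, and of these neighbours the first 3 overlapped and the P5 PBS arrays lay below. Il6ra in O4+ cells had the same order as Socs3, with medians of 13.35, 12.04, 11.06 and 10.79, and the P10 pair overlapped. In CD11B+ cells Il6ra lay between 15.04 and 15.81 on all arrays, the P10 arrays above the P5 arrays, with both treatments overlapping at each age. Il6st in O4+ cells ran from 10.93 with PBS at P5 to 10.67 with PBS at P10, and all neighbours overlapped. In CD11B+ cells its order was PBS and IL1B at P10, overlapping, then PBS at P5 and, apart from all others, IL1B at P5 (median 10.84).

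Osmr separated the ages and not the treatments in O4+ cells, with medians of 8.91 and 8.47 with IL1B and PBS at P5 and 7.87 and 7.56 at P10. In CD11B+ cells its medians were 7.09 and 7.08 at P5 and 5.90 and 5.56 at P10, and all neighbours overlapped. Stat3 in O4+ cells ran 13.80, 13.44, 13.01 and 12.93, with IL1B before PBS at each age, and the P10 pair overlapped. In CD11B+ cells Stat3 was highest with IL1B at P5 (median 14.48), and the other 3 groups overlapped in a chain between 13.85 and 13.65. Lrg1 in CD11B+ cells ran 12.88 with IL1B at P5, 6.97 with IL1B at P10, 6.37 with PBS at P5 and 5.74 with PBS at P10, the last 3 overlapping. Saa3 and Upp1 had the same order there, and their IL1B arrays at P10 lay above the P5 PBS arrays for Saa3 and overlapped them for Upp1, while the PBS arrays of both ages overlapped for both genes. In O4+ cells Lrg1 was highest with IL1B at P5 (median 7.42), and the other 3 groups overlapped, with medians of 4.45, 4.42 and 3.86. Upp1 in O4+ cells ran 7.53 with IL1B at P5, 5.72 with PBS at P5, 5.66 with IL1B at P10 and 5.17 with PBS at P10, and the middle pair overlapped.

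The patterns most like Osmr, Socs3 and Lrg1 were sought among 24059 probes by the mean of Pearson's r over the 24 O4+ and the 24 CD11B+ arrays. These arrays span the treatments and ages, so r describes shared group differences and has no p. The gene closest to Osmr was Ctla2a (mean r 0.955), followed by Mfsd7c (0.955), Asb4 (0.921), Plagl1 (0.914) and Ctla2b (0.908). Socs3 was closest to March1 (0.965), Phf15 (0.954), Kcnk6 (0.952) and Gngt2 (0.947). Lrg1 was closest to Clec4e (0.977), Cd300lf (0.973), Ccl12 (0.97), Csf2rb (0.968) and Cxcl16 (0.967). Clec4e encodes a C-type lectin receptor of myeloid cells.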

How the data were processed

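Expression was measured in 48 samples, 6 in each of 8 groups taken from the labels. The authors amplified total RNA into Cy3-labelled cRNA and hybridised 1 array per sample. The deposited scanner files (Feature Extraction, 1 colour) give the intensity of each spot with its background subtracted. The deposited matrix gives the ratio of this signal to the array median, as their log2 values show (they deviate by at most 1.862e-05), and served as an alternative.

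The intensities of 59305 spots for 55681 probes were log2-transformed, quantile-normalized and averaged where a probe had several spots. On all arrays together 278 spots marked as non-uniform were left out, 0 were saturated, and no filter on dim probes was applied. Within groups, arrays correlated at 0.958 or more. Groups were tested by lmFit and eBayes of limma (version 3.58.1, R version 4.3.3), files were read by data.table (version 1.17.8) and jsonlite (version 2.0.0), and Benjamini-Hochberg adjustment ran over all probes. Differences of responses were tested as interaction terms without a fold threshold. The scripts were tested on simulated data. Each gene is represented by its probe with the highest mean over 48 arrays, and the other probes of the 8 genes were examined too. Slide and scan day were read from the file headers, with 9 slides in all.

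As alternatives, arrays were scaled to the 75th percentile, corrected by normexp with an offset of 50 or taken from the deposited values, and further settings were 1 fit of all 4 groups of a cell type, the mean over the probes of a gene, blocks for slide, scan day or replicate number, an equal-variance test as named in the methods, no fold threshold, and each array left out in turn. Named genes were the 8 genes, the ligands and receptors of the family above background, and the pathway genes with the largest called changes, and others named beside them were chosen after their values were seen. Some genes that the rule takes are not reported here. The members and lists (the 6 pathway lists and the oligodendrocyte, microglia, neutrophil and monocyte, endothelial, mural, astrocyte, neuron and erythroid markers) were chosen with earlier results of these data known. Replicates are labelled as separate samples of pooled tissue, so p-values measure the spread between such pools.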

Additional observations from a re-analysis of the deposited data

Results flagged for a closer look

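In 8 of 64 groups of 6 arrays looked at, 1 array stood far from the others for its gene, where chance alone gives about 1 in 20 groups (3.2 of 64). In CD11B+ PBS arrays at P10, replicate 6 had an Lrg1 log2 signal of 7.78 (nearest 6.05) and an Il6st signal of 12.20 (nearest 12.42). In CD11B+ IL1B arrays at P5, replicate 3 had the lowest Lrg1, 11.94 (nearest 12.76), and the lowest Saa3, 10.55 (nearest 11.46). In CD11B+ PBS arrays at P5, replicate 2 had an Il6ra signal of 15.15 (nearest 15.27), replicate 3 an Osmr signal of 6.04 (nearest 6.86) and replicate 5 an Upp1 signal of 6.58 (nearest 5.01). In O4+ IL1B arrays at P10, replicate 2 had a Saa3 signal of 5.51 (nearest 2.26), and it was the array of its group on which Saa3 was well above background.

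The IL1B response differed between cell types or ages by the test of the interaction. At P10 it was larger in O4+ than in CD11B+ cells by 0.775 on the log2 scale for Socs3 and by 0.38 for Il6st. The Il6st call was lost with slide as a block and with cell types paired by replicate number within each treatment. Scaling to the 75th percentile and the deposited values ended it too. Among the 82 other pathway genes the response differed between cell types for 36 at P5 and 11 at P10 (10.7% and 7.56% of all probes). Between ages it differed for 32 in O4+ cells and 32 in CD11B+ cells (13.1% and 16.8% of all probes). The P5 count fell with slide as a block, and these lists were chosen with earlier results of the same arrays known.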

How the results depend on the processing

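For the 8 genes in CD11B+ cells at P10, the 2 calls became 1 with the equal-variance test and 0 with slide, with scan day or with replicate number as a block, and between 0 and 3 with an array left out (3 without PBS replicate 6). In O4+ cells at P10 the count of 0 became 1 without a fold threshold and lay between 0 and 1 with an array left out (1 without PBS replicate 3). For age in O4+ cells the 4 calls became 7 without a fold threshold. The cell type difference of the P10 response, 2 genes, became 1 with scaling to the 75th percentile, with the deposited values or with slide as a block, 3 with cell types paired by replicate number within each treatment, and 4 without CD11B+ PBS replicate 6. The last pair of counts includes Saa3, whose O4+ signals were mostly not well above background. The settings for differences of responses, here and below, were chosen after seeing the data.

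For the pathway genes, the 14 calls in O4+ cells at P10 became 23 without a fold threshold and lay between 12 and 17 with an array left out. The 6 in CD11B+ cells became 15 without a fold threshold, 0 with slide as a block, and between 4 and 18 with an array left out (18 without PBS replicate 6). The 36 genes whose response differed between cell types at P5 became 21 with slide as a block. Slide could not be fitted as a block for differences between ages.

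Between PBS and IL1B pups, which are different animals, same-numbered samples did not deviate together in every pair (lowest correlation -0.309 in CD11B+ cells at P5), so they were not paired. Between cell types, taken from the same brains, a sample of O4+ cells correlated best with the CD11B+ sample of its own number in 5 of 6 pairs with PBS and 2 of 6 with IL1B at P5, and in 4 of 6 and 6 of 6 at P10. The lowest correlations were 0.041, -0.03, -0.056 and 0.267, and no source used here states that a number marks the same brains. With replicate number as a block the cell type comparison at P10 kept its 7 calls, and pairing within each treatment gave 36 pathway genes at P5 and 12 at P10. Beyond the counts above the replicate block moved no count over 1.5 times. No direction of a call was reversed. Of single-gene values under other settings, 1556 were counted as unchanged, 41 as moved, 20 as newly passing the threshold and 32 as losing it. With an array left out, 1443 were counted as unchanged, 29 as moved, 11 as newly passing and 53 as losing it. For the 8 genes at P5, unchanged referred to size and not to the threshold. For the other values it referred to direction and side of the threshold, and their size could change. Lrg1 in CD11B+ cells at P10, for example, was uncalled at 0.97 and at 0.25 with slide as a block. The cause of these changes was not tested.

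Scaling to the 75th percentile gave a median change over all probes of -0.19 in O4+ cells at P10, 0.11 in CD11B+ cells at P5 and 0.22 for age in O4+ cells. The deposited values gave -0.17 in O4+ cells at P5 and at P10, 0.22 for age in O4+ cells and -0.16 for cell type at P10. Dim genes set the limits. With normexp, Saa3 differed by 4.70 and Upp1 by 4.21 in CD11B+ cells at P5. Only 6 arrays per group, slides that held mostly 1 treatment, and pooled tissue limit all values, and no protein or phosphorylation was measured.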
